A study of Mus musculus with 12 samples.

Results

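The mitochondrially encoded genes are the genes carried by the mitochondrial genome itself. They were taken as every row of the deposited count matrix whose gene symbol starts with mt-, which gave 37 of 48321 genes: 13 protein-coding genes, 2 ribosomal RNA (rRNA) genes and 22 transfer RNA (tRNA) genes. All 37 had a place on the mitochondrial chromosome in the GENCODE M21 annotation of the mouse genome build GRCm38, and 24 of them had at least 1 read in some library. RNA-seq was run on immortalized murine brown adipocytes in 4 groups of 3 libraries: cells with the empty vector (pLEX) and cells with a truncated, soluble form of Semaphorin 4B (tSema4B), each unstimulated or treated with norepinephrine (NE).

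All 4 groups came from brown preadipocytes of a wild-type newborn mouse that carry the SV40 large T antigen. A lentivirus delivered either the empty vector or the tSema4B construct, puromycin selection gave 1 stable line per construct, and the cells were differentiated for 8 days. They were then kept in serum-free medium with albumin for 6 h, with 2 µM NE or without it. The series describes its replicates as technical and names no separate line, animal or clone behind them. The p-values therefore measure only the spread between these libraries, and a difference between the 2 constructs cannot be told apart from a difference between the 2 lines.

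Mitochondrial DNA is transcribed from both strands into long precursors, from which rRNAs, messenger RNAs (mRNAs) and tRNAs are cut. The mRNAs encode core subunits of the respiratory complexes I, III and IV and of the ATP synthase (complex V), while complex II is encoded by nuclear genes alone. All other proteins of the organelle, including the RNA polymerase that makes these transcripts and the proteins of the mitochondrial ribosome, are imported from the cytosol. Brown adipocytes are rich in mitochondria, and NE is the signal that activates their heat production. In bulk RNA, fewer mitochondria per cell, less RNA per mitochondrion and fewer cells of a mitochondria-rich type cannot be told apart.

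Some of the members have near-identical copies in the nuclear genome, and the following sequences show why their counts have to be read with care. The pair below is the first 100 bases of mt-Nd3, a complex I subunit gene at chrM:9459-9806, and of its nuclear copy Gm28438, which lies on the minus strand at chr1:24612775-24613119. The capital marks position 3, the only base that differs over the 345 aligned bases (T3C, counted from the first base of the gene). The last line is the end of mt-Atp8, an ATP synthase subunit gene at chrM:7766-7969, with capitals for the 43 bases it shares with the start of mt-Atp6. All sequences are GENCODE M21 transcripts of GRCm38, read 5′ to 3′ on the strand of the gene.
mt-Nd3: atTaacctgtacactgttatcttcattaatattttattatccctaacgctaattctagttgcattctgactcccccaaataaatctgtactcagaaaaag
Gm28438: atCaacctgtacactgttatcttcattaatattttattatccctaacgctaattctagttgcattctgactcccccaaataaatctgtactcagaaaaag
mt-Atp8: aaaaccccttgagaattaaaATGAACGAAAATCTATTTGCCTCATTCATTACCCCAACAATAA

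The 2 tRNA genes with the most reads, the only tRNA genes that could be tested, are printed whole, with the anticodon in capitals. Both are on the minus strand: mt-Tq, the tRNA for glutamine, at chrM:3772-3842 and mt-Tp, the tRNA for proline, at chrM:15356-15422.
mt-Tq: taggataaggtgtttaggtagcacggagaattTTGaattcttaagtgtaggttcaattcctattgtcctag
mt-Tp: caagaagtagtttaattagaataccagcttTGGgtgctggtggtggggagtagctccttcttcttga

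Between 2000780 and 5409583 reads per library were counted on genes, and in both conditions every vector library was deeper than every tSema4B library (2841941 to 3682634 reads against 2000780 to 2541747 without NE, and 4739777 to 5409583 against 2307190 to 3144946 with NE). Sema4b, the gene delivered by the virus, took 8.53%, 10.2% and 8.87% of all counts in unstimulated tSema4B libraries and 7.01%, 7.50% and 8.88% after NE. It also took 4.02%, 3.58% and 3.68% in unstimulated vector libraries and 2.57%, 2.04% and 2.34% after NE, so the groups were separate but the vector libraries were far from 0. The summed counts of 10 brown adipocyte markers were 40098 to 45690 in unstimulated vector cells against 6698 to 9481 with tSema4B, and 53460 to 64918 against 10557 to 11943 after NE, with Dio2 at 0 in all 12 libraries and Ucp1 at 0 in the unstimulated tSema4B libraries. Those of 7 preadipocyte or fibroblast markers ran the other way (9038 to 9488 against 16038 to 18225, and 7014 to 7900 against 13745 to 14617 after NE). The 5 macrophage and 4 endothelial markers summed to at most 24.6 and 21.9 normalized counts, with Adgre1, Ptprc and Kdr at 0 in every group. Fabp4, Lpl and Cd36 made up most of the brown adipocyte sums. Ppargc1a, on the same list, had higher means with tSema4B (20.8 with vector against 32.8 without NE, 13.5 against 18.3 with NE) and was not called. The marker sums moved with the same contrast as the mitochondrial values below, and their part in those values was not tested.

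The mitochondrially encoded genes took about as large a share of the tSema4B libraries with NE as without it, and in both conditions a clearly smaller share than in the vector libraries. Without NE they took 13.4%, 14.3% and 15.8% of all normalized counts with the vector, and 7.89%, 7.02% and 7.76% with tSema4B. After NE the shares were 15.6%, 16.3% and 16.7% in vector cells and 6.91%, 7.68% and 7.19% in tSema4B cells. In neither condition did a tSema4B library reach a vector library, whereas the libraries with and without NE overlapped in both lines. The means were 14.5% ± 1.24 and 7.56% ± 0.474 without NE, and 16.2% ± 0.530 and 7.26% ± 0.389 with NE (SD, n = 3), a share 1.92 and 2.23 times higher in vector cells. A share summed over chosen genes was given no test. The share of each library rested on 140381 to 880248 mitochondrial reads, so the 95% Wilson interval reached at most 0.0422 percentage points to either side, for counting error only.

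**Figure D1:**
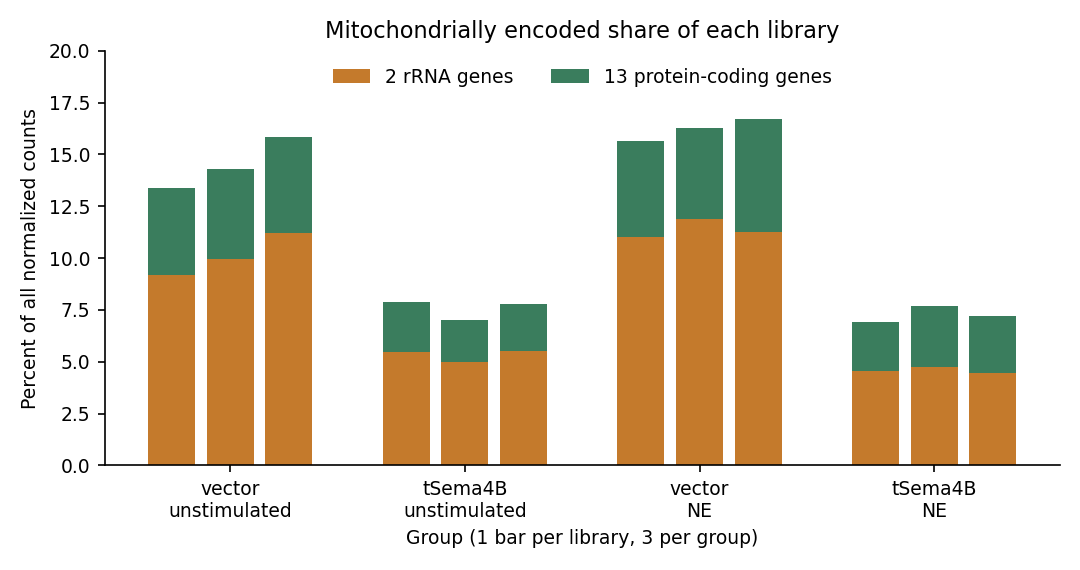
Percent of all normalized counts (y axis) on the 2 mitochondrial rRNA genes (lower part of each bar) and the 13 mitochondrial protein-coding genes (upper part) in each of the 12 libraries (x axis, 3 per group). Vector libraries sit between 13.4% and 16.7% and tSema4B libraries between 6.91% and 7.89%.

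Most of this share was rRNA. The mitochondrial rRNAs took 9.19%, 9.98% and 11.2% of unstimulated vector libraries, 5.48%, 4.96% and 5.53% of unstimulated tSema4B libraries, 11.0%, 11.9% and 11.2% of vector libraries with NE, and 4.53%, 4.77% and 4.45% of tSema4B libraries with NE. The protein-coding genes took 4.20%, 4.33% and 4.66% with the vector and 2.42%, 2.05% and 2.23% with tSema4B when no NE was given. After NE they took 4.60%, 4.40% and 5.44% in vector cells and 2.37%, 2.91% and 2.74% in tSema4B cells. The rRNA count per protein-coding count was 2.19, 2.30 and 2.40 in vector libraries and 2.27, 2.42 and 2.48 in tSema4B libraries without NE, and averaged 2.39 ± 0.316 (SD, n = 3) in vector cells with NE, where the lowest library was at 2.07. In tSema4B cells with NE it was 1.91, 1.64 and 1.62, below every other library. Several protein-coding counts are uncertain because their sequence also occurs in nuclear genes, as described below. The protein-coding share and the rRNA count per protein-coding count carry that uncertainty. How fully the library protocol captured rRNA, mRNA and tRNA was not measured either, so these are shares of counts. The tRNA genes never took more than 0.00140% of a library.

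Counts of different members were compared per kilobase of gene. How fully the library protocol captured each RNA was not measured, so the order below is one of counts, not of RNA amounts. mt-Rnr2, the RNA of the large mitochondrial ribosomal subunit (chrM:1094-2675), led in all 12 libraries with a mean of 141200 normalized counts per kilobase, and by total normalized count it ranked between 1 and 2 among all genes of a library. mt-Co1 (chrM:5328-6872), the catalytic subunit of complex IV, followed at 29838, mt-Nd1 (chrM:2751-3707), a membrane subunit of complex I, at 25895, mt-Rnr1 (chrM:70-1024), the RNA of the small ribosomal subunit, at 22533 and mt-Cytb (chrM:14145-15288), the cytochrome b of complex III, at 20342 per kilobase. The order among these was not fixed: mt-Nd1 exceeded mt-Rnr1 in 8 of 12 libraries, and mt-Rnr1 exceeded mt-Cytb in 8 of 12. A gap that held in all 12 libraries separated mt-Cytb from mt-Nd4 (chrM:10167-11544) at 4155 per kilobase, and mt-Nd4 exceeded mt-Nd5 (chrM:11742-13565) at 3869 in 10 of 12. Below them stood mt-Nd2 (chrM:3914-4951) at 2037, mt-Nd6 (chrM:13552-14070), the only protein-coding member on the minus strand, at 1359, and mt-Nd3 at 332 per kilobase, each lower than the one before in all 12 libraries. The place of mt-Nd3 depends on the measure: per window of 100 bases with no nuclear match, it had 19.2 normalized counts on 6 windows, above mt-Nd4 (11.4), mt-Nd5 (4.09), mt-Nd2 (2.33) and mt-Nd6 (1.68). That measure divides all counts of a gene by its unmatched windows, wherever the reads lie. With only 6 such windows, the value of mt-Nd3 is not read as a rank. mt-Nd2 to mt-Nd6 all encode subunits of complex I.

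The remaining protein-coding members were at or near 0. mt-Atp8, mt-Atp6, mt-Co3 and mt-Nd4l had no read in any of the 12 libraries, which allows a share of up to 7.60e-06% of all reads (3 counts over the 12 libraries, counting error only), and mt-Co2 had 2 reads. These genes lie next to one another: mt-Co2 at chrM:7013-7696, mt-Atp6 at chrM:7927-8607, mt-Co3 at chrM:8607-9390 and mt-Nd4l at chrM:9877-10173, with mt-Atp8 and mt-Nd3 between them. They encode subunits of complex IV (mt-Co2, mt-Co3), complex V (mt-Atp6, mt-Atp8) and complex I (mt-Nd3, mt-Nd4l).

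The same stretch of the mitochondrial genome is present in the nuclear genome. On chromosome 1, 7 annotated genes within chr1:24611535-24616197 follow the mitochondrial order on the minus strand. Gm28661, Gm10925, Gm28437 and Gm10222 matched mt-Co2, mt-Atp6, mt-Co3 and mt-Nd4l without a mismatch over 681, 678, 783 and 294 aligned bases. Gm28439 matched the first 876 of the 1378 bases of mt-Nd4, and Gm29216 matched the last 492 bases of mt-Co1 with 6 mismatches. mt-Atp8 has no annotated nuclear copy, but Gm10925 and Gm28661 leave 233 bases between them. As many lie between the aligned stretches of mt-Atp6 and mt-Co2, and mt-Atp8 falls in that gap up to its overlap with mt-Atp6. The nuclear sequence of the gap was not examined here.

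Each member was therefore cut into all windows of 100 bases, the read length of the study, and each window was searched in the other annotated transcripts. The share of windows with an exact match in a nuclear transcript was 99.5% for mt-Co2, 99.5% for mt-Atp6, 99.9% for mt-Co3, 98.5% for mt-Nd4l and 97.6% for mt-Nd3. It was 60.8% for mt-Nd4, 30.8% for mt-Co1 and 3.19% for mt-Nd2, and 0% for mt-Rnr1, mt-Rnr2, mt-Nd1, mt-Nd5, mt-Nd6, mt-Cytb and mt-Atp8. Thus every member above 90% was at or near 0 except mt-Nd3, which kept 60 to 271 reads per library with 6 of its 249 windows unmatched. mt-Atp8 was at 0 without a matching annotated window. The nuclear copies themselves held few reads: the 7 on chromosome 1 had at most 32 each over all libraries, Gm28439 had none, and Gm13340, a copy of mt-Co1 on chromosome 2 with 97.6% identity, had 95. How reads with several alignments were counted is not given in the sources used here, and its part in these low counts was not tested. The counts of 0 for mt-Atp6, mt-Co3 and mt-Nd4l and of 2 for mt-Co2 are therefore not read as absence of the transcript. The counts of mt-Nd3, mt-Nd4 and mt-Co1 are uncertain for the same reason. That reason does not cover mt-Atp8, which has no matching annotated window. Its count of 0 is not read as absence either, because the nuclear gap between Gm10925 and Gm28661 was not examined.

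**Figure D2:**
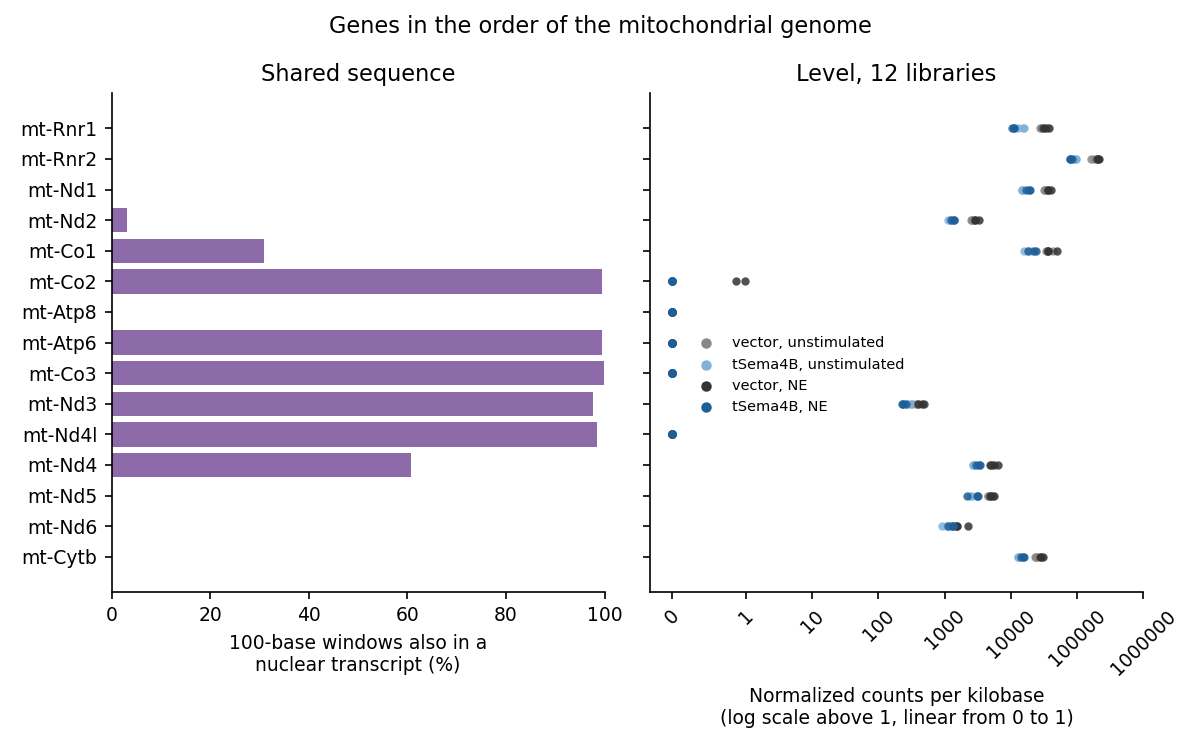
Left, percent of the 100-base windows of each mitochondrial rRNA and protein-coding gene that also occur in a nuclear transcript. Right, normalized counts per kilobase of gene (log scale above 1, linear from 0 to 1) with 1 point per library. The members at 97.6% or more sit at 0 or, for mt-Co2 and mt-Nd3, at most at 0.982 and 497 per kilobase, and mt-Atp8 sits at 0 with no matching window.

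The 22 tRNA genes collected 359 reads in all 12 libraries together, 9 to 76 per library, and 9 of them had none. Of these reads, 313 (87.2%) fell on the 8 tRNA genes of the minus strand, mt-Tp with 152 and mt-Tq with 126 being the highest. The other 11 tRNA genes with a read had at most 23 (mt-Tc, for cysteine, also on the minus strand). The highest on the plus strand was mt-Tl1, for leucine, with 13. Each tRNA gene is shorter than a read of the study. The split is by the strand of the gene. Whether the libraries or the counting kept strand is not given in the sources used here, so the strand of the RNA is not known.

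A filter of at least 10 normalized counts in at least 3 libraries left 11998 genes for testing, among them 12 members: mt-Rnr1, mt-Rnr2, 8 protein-coding genes, mt-Tp and mt-Tq. mt-Tq passed through the vector libraries with NE, all 3 above 10, and 1 unstimulated tSema4B library, so differences that involve those libraries are partly set by the filter, and its values in them are given without a test. Calls were made with limma on log2(normalized count + 1) at an adjusted p of 0.05 over all genes tested.

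Without NE, tSema4B cells had lower levels of both rRNAs and of 6 of the 8 protein-coding members tested, which took in subunits of complexes I, III and IV. In all, 8 of 12 members fell and none rose, where 7.39% of all genes tested fell and 5.64% rose. The median log2 fold change was -0.89 over the 8 protein-coding members, against -0.00 over all genes tested, and the 12 members ran from -1.13 for mt-Nd1 to 0.80 for mt-Tq. When a 2-fold difference was required as well (1 on the log2 scale), 4 members remained (mt-Co1, mt-Nd1, mt-Nd2 and mt-Rnr1), where 2.71% of all genes tested passed downward and 1.11% upward. For 10 of the 12, no tSema4B library reached a vector library, which held for 15.1% of all genes tested, and for 14.2% in the other direction.

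mt-Nd1 had 31150, 31673 and 30554 normalized counts in the unstimulated vector libraries and 14377, 14156 and 14004 in the tSema4B libraries. The 2 groups were far apart and each was tight, and the log2 fold change was -1.13 ± 0.06 (standard error, SE), or 2.20-fold (adjusted p = 6.24e-12, limma). mt-Rnr2 had 256022, 282346 and 317372 against 150756, 141087 and 153079, a log2 fold change of -0.94 ± 0.06 (adjusted p = 5.32e-10). mt-Rnr1 had 27615, 26582 and 34069 against 15129, 12476 and 14860, a log2 fold change of -1.05 ± 0.09 (adjusted p = 1.77e-08). Every vector library stood above every tSema4B library for both rRNAs.

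mt-Co1 had 53046, 55069 and 67698 counts in vector and 32144, 24908 and 28564 in tSema4B libraries (log2 fold change -1.04 ± 0.12, adjusted p = 1.50e-06). mt-Cytb had 26876, 28765 and 27347 against 15271, 14623 and 14978 (-0.89 ± 0.06, adjusted p = 4.80e-10). The remaining falls were those of mt-Nd2, mt-Nd4 and mt-Nd5, with log2 fold changes of -1.11, -0.90 and -0.84. All 8 falls were called under each of the 17 alternatives tried, which left out single libraries, changed the scaling or the filter, or used edgeR or DESeq2 on recovered reads.

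mt-Nd6 and mt-Nd3 had smaller differences that did not pass. mt-Nd6 had 649, 642 and 813 counts in vector and 557, 480 and 559 in tSema4B libraries, which did not overlap (log2 fold change -0.39 ± 0.14, adjusted p = 0.0605). mt-Nd3 had 138, 113 and 127 against 82.2, 95.9 and 104, also without overlap (-0.42 ± 0.18, adjusted p = 0.133). mt-Nd6 was called in 3 of the 17 alternatives, with adjusted p from 0.0279 to 0.248, and mt-Nd3 in none, with adjusted p from 0.112 to 0.339. mt-Tp and mt-Tq were too sparse to place: mt-Tq had 4.34, 2.52 and 9.80 against 13.1, 6.19 and 9.58 normalized counts, with overlapping groups.

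**Figure D3:**
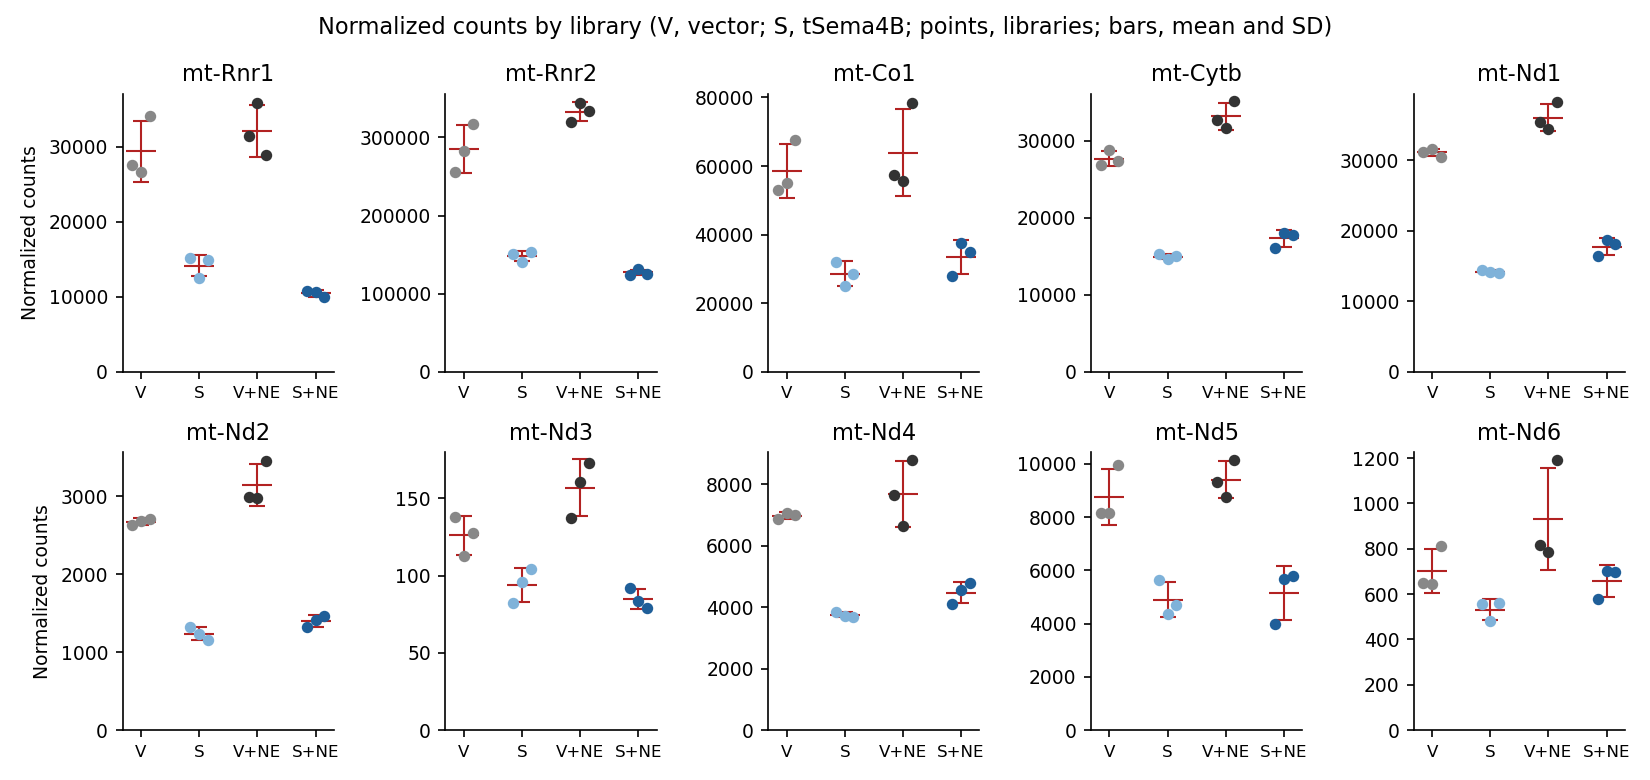
Normalized counts (y axis, from 0) of the 10 rRNA and protein-coding members tested in each library, with the group mean and SD, for vector (V) and tSema4B (S) cells with and without NE. For each of the 10 genes the 3 vector libraries lie above the 3 tSema4B libraries of the same condition.

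In NE-treated cells the same comparison took in nearly all members tested, and the rRNAs showed the deepest falls among the rRNA and protein-coding members. mt-Tq is left out of the counts for this comparison, since it passed the filter through the vector libraries with NE. Of the other 11 members tested, 10 fell and none rose, where 11.2% of all genes tested fell and 9.79% rose, and mt-Tp alone was not called. The median log2 fold change was -0.91 over the 8 protein-coding members and -1.50 over the 2 rRNAs, against -0.01 over all genes tested. With the 2-fold requirement, 4 members remained (mt-Nd1, mt-Nd2, mt-Rnr1 and mt-Rnr2), against 3.73% of all genes tested downward and 2.03% upward. The groups did not overlap for 10 members, all lower with tSema4B, against 19.8% of all genes tested lower and 17.9% higher.

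mt-Rnr2 had 320029, 344726 and 333817 counts in vector and 124234, 131359 and 125713 in tSema4B libraries, with a log2 fold change of -1.39 ± 0.06, or 2.62-fold (adjusted p = 7.19e-13). mt-Rnr1 had 31498, 35809 and 28899 against 10776, 10603 and 9914, with a log2 fold change of -1.62 ± 0.09, or 3.06-fold (adjusted p = 1.69e-11). The protein-coding members had smaller falls, from mt-Nd2 at -1.16 (adjusted p = 5.04e-10) to mt-Nd6 at -0.48 (adjusted p = 0.0149).

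mt-Nd1 had 35453, 34501 and 38286 counts in vector and 16387, 18684 and 18150 in tSema4B libraries (-1.02 ± 0.06, adjusted p = 2.97e-11), and mt-Cytb had 32756, 31621 and 35111 against 16098, 18057 and 17747 (-0.94 ± 0.06, adjusted p = 1.41e-10). mt-Co1 had 57329, 55690 and 78487 against 28009, 37403 and 34847 (-0.93 ± 0.12, adjusted p = 6.68e-06). The third vector library was the highest for all of these genes, and without it mt-Co1 stood at -0.77. mt-Nd4, mt-Nd5 and mt-Nd3 fell with log2 fold changes of -0.77, -0.88 and -0.87, the last with an adjusted p of 0.00125.

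mt-Nd6 had 815, 785 and 1191 counts in vector and 577, 700 and 698 in tSema4B libraries with NE. Its call was lost without the third vector library (log2 fold change -0.29, adjusted p = 0.146) and without the first tSema4B library (adjusted p = 0.0719). mt-Tq had 12.8, 19.6 and 17.7 against 2.14, 4.73 and 2.64 normalized counts, given without a test because the filter admitted it through these vector libraries. The recovered reads behind it were 19, 33 and 27 with the vector and 2, 5 and 2 with tSema4B.

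**Figure D4:**
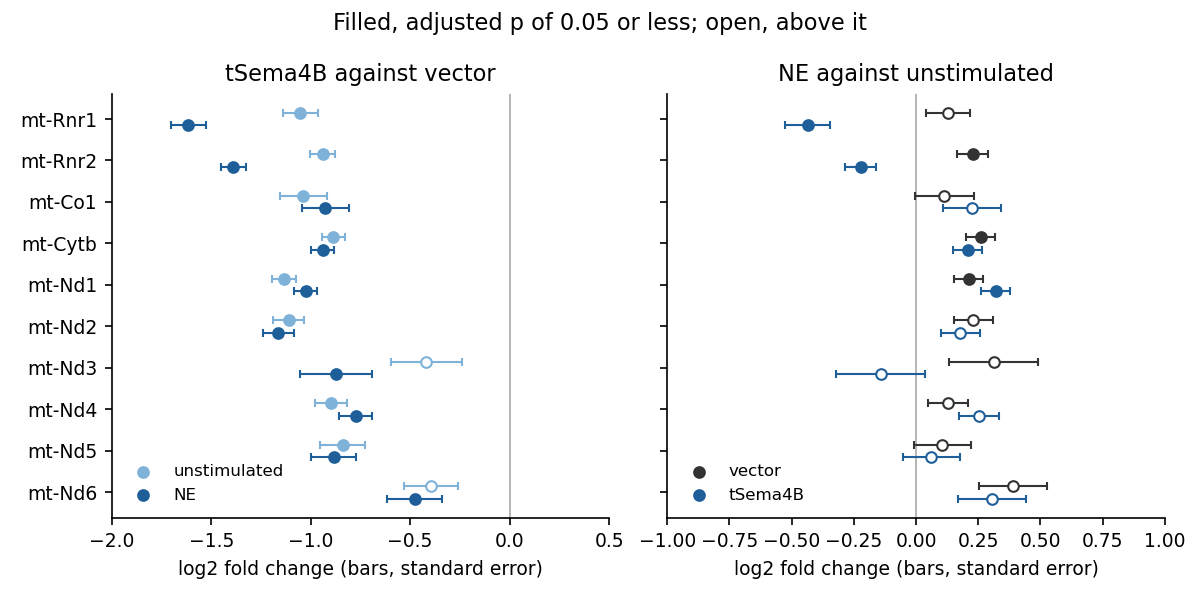
log2 fold changes of the 10 rRNA and protein-coding members tested (x axis) with their SE, for tSema4B against vector (left) and NE against unstimulated (right). Filled symbols passed an adjusted p of 0.05. At left all 20 values are below 0, with mt-Rnr1 and mt-Rnr2 lowest after NE at -1.62 and -1.39. At right the 2 rRNAs are above 0 in vector cells and below 0 in tSema4B cells.

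NE alone changed the members little. In vector cells 3 of 12 members rose (mt-Cytb, mt-Nd1 and mt-Rnr2) and none fell, where 6.82% of all genes tested rose and 4.78% fell. mt-Cytb rose by a log2 fold change of 0.26 ± 0.06 (adjusted p = 0.00510), mt-Nd1 by 0.21 ± 0.06 (adjusted p = 0.0196) and mt-Rnr2 by 0.23 ± 0.06 (adjusted p = 0.0198), that is from a mean of 285247 ± 30777 to 332857 ± 12376 counts (SD, n = 3). The values of the other 7 rRNA and protein-coding members were all above 0, from 0.11 for mt-Nd5 to 0.39 for mt-Nd6. None of the called members reached 2-fold, where 1.66% of all genes tested were called with a 2-fold rise and 0.975% with such a fall. Setting aside mt-Tq, which passed the filter through these NE libraries and stood at a log2 fold change of 1.57, the groups did not overlap for 4 members, all higher with NE (mt-Cytb, mt-Nd1, mt-Nd2 and mt-Rnr2), against 17.6% higher and 15.7% lower of all genes tested. The call of mt-Nd1 was lost without replicate 1 or 3 of the unstimulated or replicate 3 of the NE libraries (adjusted p = 0.0656, 0.0674 and 0.121), and that of mt-Rnr2 without replicate 1 or 2 of the unstimulated or replicate 2 or 3 of the NE libraries (adjusted p = 0.171, 0.0695, 0.0732 and 0.0587). After setting every library to an equal total, or scaling over nuclear genes without Sema4b, mt-Cytb alone was called.

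In tSema4B cells both rRNAs fell with NE and 2 protein-coding members rose. mt-Nd1 rose by a log2 fold change of 0.32 ± 0.06 (adjusted p = 0.00114) and mt-Cytb by 0.21 ± 0.06 (adjusted p = 0.0345), while mt-Rnr1 fell by 0.44 on the log2 scale (SE 0.09, adjusted p = 0.00346) and mt-Rnr2 by 0.22 (SE 0.06, adjusted p = 0.0354). Thus 2 of 12 members rose and 2 fell, where 3.68% of all genes tested rose and 2.58% fell. None of these called members reached 2-fold (1.31% and 0.758% of all genes tested were called at that size), and mt-Tq stood at -1.34 without a call. For mt-Rnr1 and mt-Rnr2 every NE library lay below every unstimulated library of tSema4B cells, and for mt-Nd1, mt-Cytb, mt-Nd4 and mt-Nd6 above, against 9.64% and 11.0% of all genes tested. Malat1, an RNA retained in the nucleus, also fell with NE in these cells, from 1857, 1972 and 2430 to 1443, 1146 and 1649 normalized counts (log2 fold change -0.57 ± 0.13, adjusted p = 0.00776). It was the only one of 4 nuclear-retained RNAs called in this comparison (with Neat1, Kcnq1ot1 and Meg3), their sums were 2255 to 2904 without and 1677 to 2105 with NE, and their part in the rRNA values was not tested. The fall of mt-Rnr1 was called in all 17 alternatives, that of mt-Rnr2 in 8 of 17 and the rise of mt-Cytb in 9 of 17. Leaving out any 1 of the 6 libraries other than the second unstimulated one removed the call of mt-Rnr2, with adjusted p from 0.0504 to 0.122. That of mt-Cytb was removed by leaving out any library other than the first NE one (adjusted p from 0.0658 to 0.134), and that of mt-Nd1 by dropping the filter (adjusted p = 0.0526).

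The response to NE was then compared between the lines with the interaction term, the log2 fold change with tSema4B minus that with vector. It was -0.56 ± 0.13 for mt-Rnr1 and -0.45 ± 0.09 for mt-Rnr2, and between -0.08 and 0.12 for 7 of the 8 protein-coding members, with mt-Nd3 at -0.45 ± 0.25. No member was called by limma at an adjusted p of 0.05 (both rRNAs at 0.113), mt-Tq left aside, 2 had an unadjusted p under 0.05 (mt-Rnr1 and mt-Rnr2, where 10.2% of all genes tested did), edgeR called 1 (mt-Rnr2) and DESeq2 called both rRNAs. Of all 11998 genes tested, limma called 0.0250% upward, 0% downward and 0.00833% upward with the 2-fold requirement, while edgeR called 3 genes upward and 1 downward, and DESeq2 29 and 58. Without the third unstimulated vector library mt-Rnr1 and mt-Rnr2 were called (adjusted p = 0.0280 and 0.00514), and without the second unstimulated tSema4B library as well (adjusted p = 0.0284 for both), where 2 and 22 of all genes were called downward. Over the 22 alternatives the adjusted p ran from 0.0135 to 0.381 for mt-Rnr1 and from 0.00514 to 0.542 for mt-Rnr2.

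To read the members against one another, every library was rescaled to the same summed count over the 37 members and the fit was repeated. mt-Rnr2 holds most of that sum: 63.1% ± 1.03 in unstimulated vector, 64.3% ± 1.11 in unstimulated tSema4B, 64.1% ± 2.04 in vector and 58.4% ± 1.74 in tSema4B cells with NE (SD, n = 3). On this scale mt-Nd6 was higher in tSema4B than in vector cells, by a log2 fold change of 0.57 ± 0.13 without NE (adjusted p = 5.39e-04) and 0.77 ± 0.13 with NE (adjusted p = 9.97e-06). Its share of the mitochondrial counts was 0.155% ± 0.00932 and 0.230% ± 0.00836 without NE, and 0.178% ± 0.0376 and 0.302% ± 0.0192 with NE.

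With NE, mt-Nd4 (0.48 ± 0.11), mt-Nd5 (0.37 ± 0.11), mt-Co1 (0.33 ± 0.11), mt-Cytb (0.32 ± 0.10) and mt-Nd1 (0.23 ± 0.10) were also higher relative to the mitochondrial sum, as was the sparse mt-Tp (1.34 ± 0.55), and mt-Rnr1 was lower (-0.36 ± 0.10, adjusted p = 0.00284). Without NE, mt-Nd3 (0.54 ± 0.20, adjusted p = 0.0198) was called beside mt-Nd6. The sparse mt-Tq also stood higher there (1.65 ± 0.64), given without a test because the filter admitted it partly through unstimulated tSema4B cells. Since the sum itself differs between the lines, 81.2% of all genes were called higher on this scale with NE and 74.1% without it, and 0.797% and 1.29% lower. With so many genes called, the adjustment over all genes changes a p-value little. In limma the unadjusted and adjusted p were 0.0269 and 0.0336 for mt-Nd1 with NE. They were 0.0136 and 0.0198 for mt-Nd3 without NE. Calls between the lines on this scale are thus weakly corrected, and only the order among the members can be read from it. On the same scale NE changed 2 members in tSema4B cells, mt-Nd1 upward (0.40, adjusted p = 0.0130) and mt-Rnr1 downward (-0.35, adjusted p = 0.0472), where 3.75% of all genes rose and 1.29% fell. In vector cells, where the 10 rRNA and protein-coding values had all been above 0, this scale removes a shift common to the members by construction, so the lack of a call there is not read (2.42% of all genes rose and 9.44% fell). mt-Nd6 is on the strand opposite to the other protein-coding members and shares 14 bases with mt-Nd5. Reads of RNA from the mt-Nd5 strand can enter its count if strand was not kept. The values of mt-Nd6 are therefore not read as those of a single strand.

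The nuclear genes that work with the members were read from lists. Of 73 nuclear subunits of complexes I, III, IV and V tested, 38 fell with tSema4B in unstimulated cells and 58 after NE, and none rose, with median log2 fold changes of -0.44 and -0.65. Of all genes tested, 7.39% fell and 5.64% rose without NE, and 11.2% and 9.79% with it. By complex, 16 of 37 subunits fell in complex I, 6 of 9 in complex III, 8 of 12 in complex IV and 8 of 15 in complex V without NE. After NE these counts were 26, 8, 11 and 13. In both conditions the falls, in total and by complex, include Ndufa4l2 (complex I) and Cox7a1 (complex IV). Both genes met the filter on low values through the vector libraries, so their falls were partly set by it and are not read as support. All 4 subunits of complex II, which has no mitochondrially encoded part, fell without NE and 2 after it, with medians of -0.40 and -0.31.

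Cox7a1 of complex IV and Ndufa4l2, listed with complex I by its name, are therefore given as values without a test. Cox7a1, a subunit form of heart, muscle and brown fat, had 38.5 ± 5.41 counts with the vector and 3.02 ± 2.78 with tSema4B without NE, and 38.4 ± 12.1 and 2.10 ± 2.86 with NE (SD, n = 3). Ndufa4l2 had 37.5 ± 2.00 and 12.7 ± 6.47 without NE, and 32.3 ± 4.90 and 4.60 ± 1.79 with NE. Cyc1, the cytochrome c1 of complex III, fell by 0.82 on the log2 scale without NE, and Uqcrq, another complex III subunit, by 1.14 after NE. In complex V, Atp5g3 stood at -0.80 without NE, and Atp5e at -0.70 without and -1.33 with it.

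For the mitochondrial ribosome, whose RNA is mt-Rnr1 and mt-Rnr2, 14 of 79 nuclear ribosomal protein genes fell with tSema4B in unstimulated cells and 29 after NE, against 7.39% and 11.2% of all genes tested, and none rose. Their median log2 fold changes were -0.24 and -0.47. Among those called without NE were Mrps22 at -1.03 ± 0.13 (adjusted p = 5.51e-06) and Mrpl12 at -0.92 ± 0.17 (adjusted p = 5.10e-04). In vector cells NE raised 11 of the 79, among them Mrpl52 (1.19 ± 0.29) and Mrpl12 (0.79 ± 0.17), and in tSema4B cells 2, Mrpl12 (0.69 ± 0.17) and Mrps22 (0.60 ± 0.13), where 6.82% and 3.68% of all genes tested rose.

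**Figure D5:**
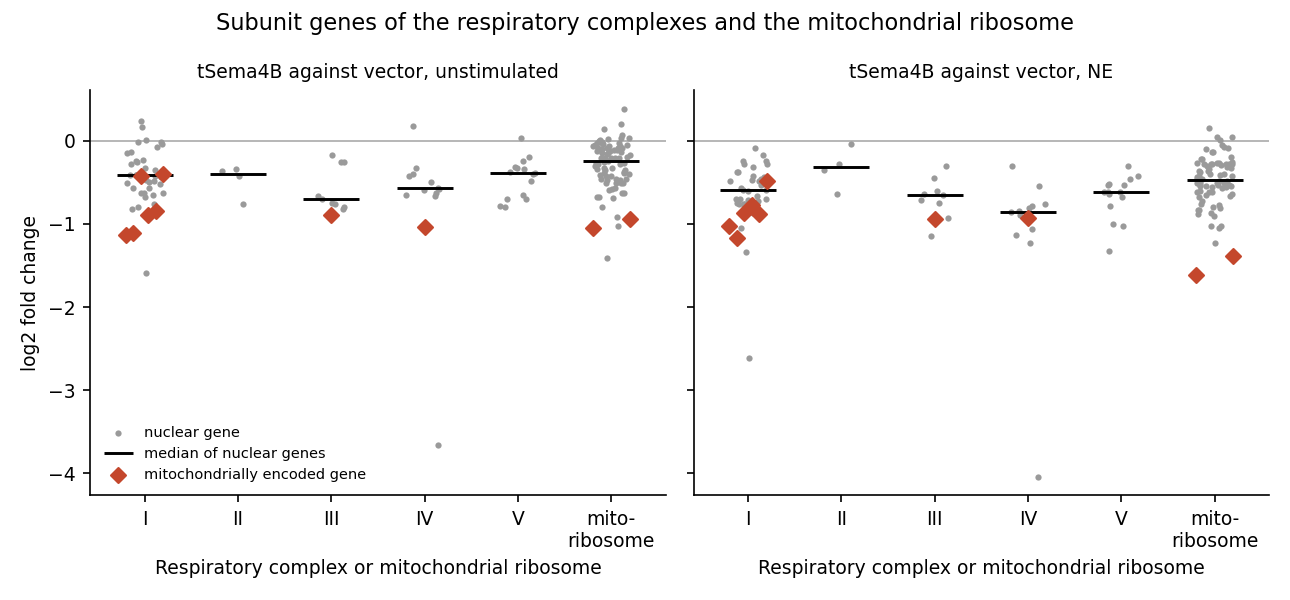
log2 fold changes of tSema4B against vector (y axis) without NE (left) and with NE (right) for subunit genes of respiratory complexes I to V and of the mitochondrial ribosome (x axis). Small points are nuclear genes, lines their medians, and diamonds mitochondrially encoded genes. The 2 rRNAs lie at -1.05 and -0.94 without NE and at -1.62 and -1.39 with NE, below the nuclear medians of -0.24 and -0.47.

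For the genes that transcribe mitochondrial DNA the median log2 fold changes with tSema4B were -0.19 without NE and -0.31 with it. Of 10 such genes none was called with tSema4B in either condition by limma, edgeR or DESeq2, and 0 without and 1 with NE had an unadjusted p under 0.05 in limma. Among all genes tested 7.39% fell and 5.64% rose without NE, and 11.2% and 9.79% with NE, so few calls would be reached in a list of 10 at those shares and their lack is not read as a result about the list. Tfam, which packages mitochondrial DNA and starts transcription, had 228 ± 36.0 counts in vector and 203 ± 6.32 in tSema4B cells without NE, and 229 ± 18.7 and 287 ± 27.0 with NE (SD, n = 3). It rose with NE in tSema4B cells (0.50 ± 0.14, adjusted p = 0.0354) and its difference between the lines was not called (0.32 ± 0.14 after NE, adjusted p = 0.110). Polrmt, the mitochondrial RNA polymerase, had log2 fold changes of -0.30 in both conditions (adjusted p = 0.472 and 0.414).

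Among 19 genes that process or stabilise mitochondrial RNA, 3 fell with tSema4B without NE and 7 after it, against 7.39% and 11.2% of all genes tested, and none rose. Trmt10c, a subunit of the enzyme that cuts tRNA 5′ ends out of the precursor, had 151 ± 10.6 counts in vector and 83.1 ± 10.5 in tSema4B cells (log2 fold change -0.86 ± 0.22, adjusted p = 0.0107), and -1.16 ± 0.22 after NE. Elac2, which cuts the 3′ ends, stood at -1.09 ± 0.33 and -1.15 ± 0.33, and Hsd17b10, a further subunit of the 5′ enzyme, at -0.48 ± 0.15 without NE. Tbrg4, an RNA-binding protein of the organelle, fell by 0.96 after NE. Lrpprc, which stabilises mitochondrial mRNAs, was at 0.12 and -0.06 and was not called.

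Of 14 genes for the upkeep of mitochondrial DNA, 1 fell with tSema4B without NE (Opa1, of the inner membrane, -0.40 ± 0.13), and 1 fell (Ssbp1, which binds single-stranded DNA, -0.60 ± 0.19) and 1 rose (Mpv17, 0.44 ± 0.14) after NE. These counts are near the share over all genes tested (7.39% lower without NE, 11.2% lower and 9.79% higher with it) and are not read as a result about the list. Polg, the mitochondrial DNA polymerase, stood at -0.27 and 0.02 and was not called. Of 10 tested regulators of mitochondrial biogenesis, Nrf1 (-0.74 ± 0.18) and Nrip1 (-0.87 ± 0.23) fell without NE, where 7.39% of all genes tested fell. Gabpb1 (-1.08 ± 0.24) and Pprc1 (-0.80 ± 0.25) were among those that fell after it, where 11.2% of all genes tested did. Ppargc1b, which met the filter through the vector libraries, had 19.04 ± 5.17 counts with the vector and 5.36 ± 1.27 with tSema4B after NE. Nrf1 and Gabpb1 are parts of factors that activate nuclear respiratory genes, Ppargc1b and Pprc1 are coactivators, and Nrip1 is a corepressor. Ppargc1a, the coactivator best known in brown fat, had 20.8 ± 6.58 counts in vector and 32.8 ± 20.2 in tSema4B cells without NE, and 13.5 ± 4.22 and 18.3 ± 9.26 with NE, and was not called.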

How the data were processed

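RNA was extracted with a total RNA kit. Libraries were made from it by SMART-Seq2 and Nextera XT and sequenced as single-end reads of 100 bases. How fully this protocol captures each kind of RNA was not measured here. Per the labels and the study's methods, the authors aligned reads to mm10 (GRCm38.p4) with STAR 2.7.9a, counted genes with HTSeq and deposited 1 signal table of counts divided by DESeq2 size factors. The gene annotation, strand setting and treatment of reads with several alignments are not given in the sources used here. Dividing by the value of 1 read gave whole numbers for 100% of values in each library (tolerance 0.01), so reads could be recovered.

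The main test was limma 3.58.1 (R 4.3.3) with an abundance trend on log2(normalized count + 1), 1 model of 4 groups over 12 libraries and 11998 genes with at least 10 normalized counts in 3 libraries, two-sided with Benjamini-Hochberg adjustment over all of them. The code was tested on simulated data over genes of all levels. It called 28% of genes set to a log2 fold change of -0.7 and 0.0603% of unchanged genes. The lack of a call is therefore not read as no change. Fold changes on this scale understate changes of low genes. Alternatives were pseudocounts of 0.5 and 10, no filter or one at 50, 2 rescalings, edgeR 4.0.16 with TMM and DESeq2 1.42.0 on recovered reads, the 6 libraries of a comparison alone, a replicate block, each library left out and, added after seeing the data, reads thinned to 2000780 per library. Depth ran from 2000780 to 5409583 reads on genes per library. Each share of a library is the sum of normalized counts of the members over that of all genes.

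All rRNA and protein-coding members were described, tRNA genes were named where they passed the filter (mt-Tc and mt-Tl1, which did not, were named after their read counts were seen), and of each list at most 3 called genes per comparison and direction were named by size of fold change, plus Tfam, Polrmt, Ppargc1a, Polg and Lrpprc. The members and lists were chosen with earlier results of these data known. Windows were searched in 141767 GENCODE M21 transcripts.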

Additional observations from a re-analysis of the deposited data

Results flagged for a closer look

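mt-Rnr2 and mt-Tq, the tRNA gene for glutamine, stood out because every vector library with NE lay above, and every tSema4B library with NE below, the unstimulated libraries of its line. For mt-Rnr2 the log2 fold change was 0.23 in vector and -0.22 in tSema4B cells, and the interaction was -0.45 ± 0.09 (SE; limma, adjusted p = 0.113). For mt-Tq it was 1.57 and -1.34, a difference of -2.91. mt-Rnr1 (0.13 and -0.44) and mt-Nd3 (0.31 and -0.14) also had fitted responses of opposite sign, without that separation of all libraries. mt-Tq rests on 2 to 33 reads per library and passed the filter on low values through the vector libraries with NE, where it is high, so its pattern is given as values only.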

How the results depend on the processing

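With a 2-fold difference required beside the adjusted p, tSema4B against vector called 4 members without NE and 5 with NE (1 of them mt-Tq, admitted by the filter through the vector libraries with NE), and NE called 0 in either line. Without the filter NE called 0 members in vector and 1 in tSema4B cells. In vector cells NE called 1 under either rescaling and 5 by DESeq2. With the 6 libraries compared alone it called 6 (1 of them mt-Tq, admitted by the filter through the vector libraries with NE). Over all genes the rises called moved as well, from 818 of 11998 to 689 and 706 under the rescalings, 1007 by DESeq2 and 1188 of 11508 with 6 libraries. The interaction called 1 member by edgeR and 2 by DESeq2. Leaving out single libraries gave 8 to 8 calls for tSema4B against vector without NE, 9 to 11 with NE (9 to 10 leaving mt-Tq aside), 1 to 3 for NE in vector, 2 to 4 for NE in tSema4B cells and 0 to 2 for the interaction. NE called 1 member in vector cells without unstimulated replicate 1 or NE replicate 3, and 2 in tSema4B cells without unstimulated replicate 1 or 3 or NE replicate 2 or 3. The interaction called 2 without replicate 3 of unstimulated vector or replicate 2 of unstimulated tSema4B cells. The cause of these changes was not tested.

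Without Sema4b and the 10 next most abundant nuclear genes in the denominator, the mitochondrial share was 15.9% and 8.86% (vector and tSema4B) unstimulated, and 17.6% and 8.30% with NE. Without Sema4b alone the tSema4B shares were 8.32% and 7.87%. Without the rRNA genes the shares were 4.89% and 2.36% unstimulated and 5.43% and 2.80% with NE.

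With the replicate number as a block the calls were 9 and 11 members for tSema4B against vector (the 11 with mt-Tq, 10 leaving it aside), 4 and 4 for NE, and 0 for the interaction. Same-numbered libraries did not deviate together: 18 correlations ran from -0.0470 to 0.0282, so the numbers do not pair them. No called value changed direction under these alternatives. The scale of equal mitochondrial totals is relative to the members' own sum, and its p-values are weakly corrected. On it, mt-Nd6, mt-Nd4, mt-Nd5, mt-Co1, mt-Cytb and mt-Nd1 were called higher with tSema4B after NE. On the main scale they were called lower. The tRNA genes together had at most 76 reads in a library, so their counting error is large.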
